A study of Homo sapiens with 6 samples.

Results

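The genes described here are 10 genes of cellular iron balance, measured by RNA sequencing in MDA-MB-231, an established cell line from a human triple-negative breast cancer. They were taken by exact symbol from the deposited table of 58735 genes, so that ferritin pseudogenes are not among them, and all 10 were among the 14975 genes that passed the filter on low counts. The tested cells were exposed to PM2.5, fine airborne particulate matter, and RNA was extracted after 48 h (3 libraries). The Control cells are labelled as such with no further description (3 libraries), and both groups are the same cell line. The sources used here give no particle dose, vehicle or batch, and the labels do not say how separate the cultures were, so p-values measure the spread between these libraries.

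Iron enters most cells bound to transferrin through the transferrin receptor, is reduced in the endosome and passes to the cytosol, where ferritin, a shell of heavy and light chains, stores what is not used. Ferritin is returned to the lysosome by the receptor NCOA4 when iron is needed, and ferroportin is the only known exporter. The iron regulatory proteins IRP1 and IRP2, encoded by ACO1 and IREB2, bind stem-loops called iron-responsive elements when iron is scarce: in the 5′ untranslated region of an mRNA they block its translation, and in the 3′ untranslated region of the transferrin receptor mRNA they slow its decay. Ferritin genes are also known targets of the antioxidant transcription factor NRF2. Only RNA was measured here, so neither translation nor iron itself can be read from these values.

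Across the 10 genes the ferritin chains differed most between the groups. FTH1 was 4.10-fold and FTL 3.05-fold lower in PM2.5 libraries than in Control libraries. ACO1 and NCOA4 were lower by less than 1.5-fold, and the metal importer SLC39A14 was higher by 0.68 on the log2 scale. The transferrin receptor TFRC, the exporter SLC40A1, the importer SLC11A2, the regulator IREB2 and the reductase STEAP3 did not pass the test. The haem-degrading enzyme HMOX1, known to be induced by particulate matter in other cells, was at 51.3 ± 6.0 CPM in PM2.5 libraries and 812 ± 58.2 CPM in Control libraries (SD, n = 3 each). These levels run against that background knowledge, and no other check of which libraries were exposed was made here. All directions are therefore given for the libraries as labelled, and would turn round if the labels of the groups were exchanged.

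Matches to the iron-responsive element pattern are shown first, because such elements are the sites through which the iron regulatory proteins are known to act. The pattern searched was a stem-loop of 27 bases: 5 bases of lower stem, an unpaired C, 5 bases of upper stem, the loop CAGNGN with A or T at its N and no G at its end, and the opposite strands of both stems. All 5 upper pairs and at least 4 of 5 lower pairs were required, with G-T pairs allowed, on the transcript strand of 1 GENCODE release 29 transcript per gene. The 6 loop bases are in capitals, and the letters are those of the DNA (GRCh38).
FTH1, 5′ untranslated region: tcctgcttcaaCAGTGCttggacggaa
FTL, 5′ untranslated region: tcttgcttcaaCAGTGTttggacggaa
SLC40A1, 5′ untranslated region: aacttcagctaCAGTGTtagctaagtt
TFRC, 3′ untranslated region, site 1: tttatcagtgaCAGAGTtcactataaa
TFRC, 3′ untranslated region, site 2: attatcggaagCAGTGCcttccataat
TFRC, 3′ untranslated region, site 3: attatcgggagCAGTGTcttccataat
TFRC, 3′ untranslated region, site 4: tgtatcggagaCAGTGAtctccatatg
TFRC, 3′ untranslated region, site 5: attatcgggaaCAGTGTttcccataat
STEAP3, 3′ untranslated region: caaggctcttgCAGAGCtagggctctg

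The FTH1 site lies at chr11:61967575-61967601 on the minus strand and the FTL site at chr19:48965336-48965362 on the plus strand. The SLC40A1 site lies at chr2:189580662-189580688 on the minus strand, the STEAP3 site at chr2:119263772-119263798 on the plus strand, and the TFRC sites between chr3:196050464 and chr3:196051056 on the minus strand. The stem-loop was found in 5 of the 10 members and in 35 of 19684 protein-coding transcripts searched (0.178%). It fell in the 5′ untranslated region of 6 transcripts in this search, among them FTH1, FTL, SLC40A1, the erythroid haem synthesis enzyme ALAS2 and the actin-severing protein CFL1. TFRC was the only transcript of the 35 with more than 1 match, at 5. The pattern is a description of sequence: a match is not shown to be bound, and its absence says only that these letters are not in the transcript searched. SLC11A2, for example, is known for an element with an extra unpaired base in its stem, a form that this pattern does not cover.

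**Figure D1:**
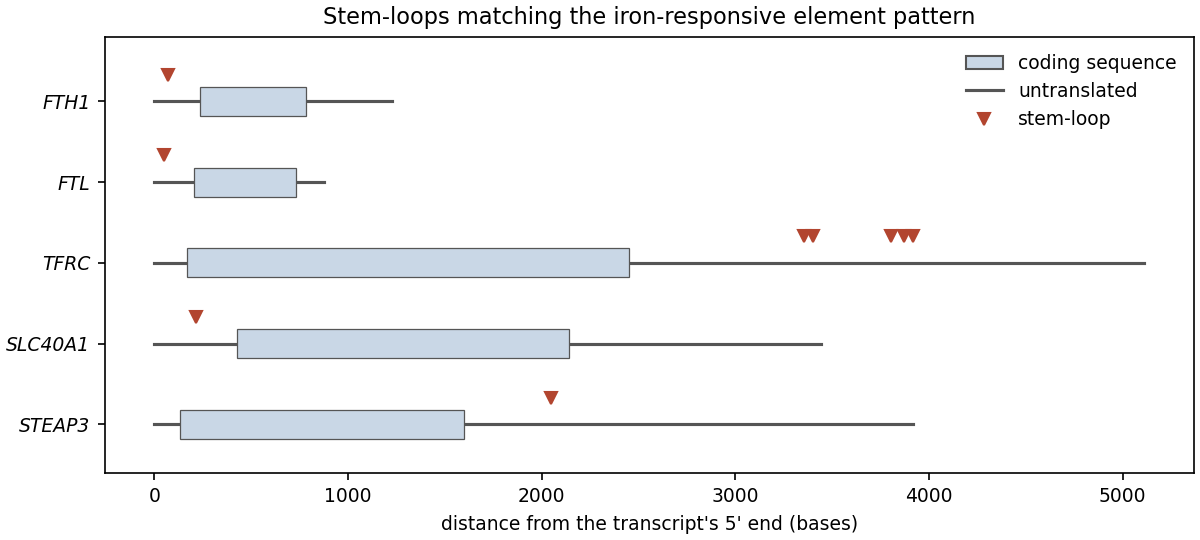
Position of the matched stem-loops (triangles) on the transcripts of the 5 genes that hold one, in bases from the transcript's 5′ end; boxes are coding sequence and lines untranslated sequence, to scale. FTH1, FTL and SLC40A1 hold 1 each before the coding sequence, STEAP3 holds 1 after it and TFRC holds 5 after it.

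Total counts ran from 31846136 to 34691009 per library, and levels are given as CPM, in which each library's counts are divided by its total and TMM factor. A gene with a count of 0 may still be at 0.0865 to 0.0942 CPM, the worth of 3 counts, depending on the library (counting error only). Control replicate 3 stood apart from the other Control libraries on the second principal component, which held 13.7% of the variance. Among the 3 Control libraries it had the lowest CPM of FTH1, FTL, SLC39A14 and SLC40A1 and the highest of the other 6 members. Of the markers of the cell line's mesenchymal type, VIM was at 2658 to 2696 CPM in PM2.5 libraries and 1921 to 2496 CPM in Control libraries, and CD44 at 1497 to 1589 CPM in PM2.5 libraries and 1438 to 1573 CPM in Control libraries. The oestrogen receptor ESR1 had 0 counts in all libraries, as had the leukocyte marker PTPRC, the erythroid genes HBB, HBA1 and HBA2, the hepatocyte gene APOB and the macrophage gene MARCO. Of 6 erythroid markers 5 and of 5 hepatocyte markers 4 were under 1 CPM in every library, and the summed levels of these lists came almost wholly from EPOR (erythroid list, 24.4 to 29.4 CPM in PM2.5 libraries, 36.7 to 44.0 CPM in Control libraries) and SERPINA1 (79.0 to 98.8 CPM in PM2.5 libraries, 52.4 to 62.4 CPM in Control libraries, over the hepatocyte list). Of 6 macrophage and leukocyte markers 4 were under 1 CPM in every library, with sums of 3.14 to 4.95 CPM in PM2.5 libraries and 1.84 to 2.58 CPM in Control libraries. Of 4 endothelial markers 2 were, with sums of 54.2 to 58.8 CPM in PM2.5 libraries and 39.8 to 52.6 CPM in Control libraries. Of 5 luminal and HER2 markers 3 were, with sums of 41.8 to 53.2 CPM in PM2.5 libraries and 67.1 to 78.5 CPM in Control libraries. Most of the endothelial sum was PECAM1, with means of 55.1 CPM in PM2.5 libraries and 43.7 CPM in Control libraries. Most of the luminal and HER2 sum was ERBB2, with means of 43.1 CPM in PM2.5 libraries and 64.9 CPM in Control libraries. The part of these levels in the results below was not tested.

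The ferritin heavy chain gene FTH1 encodes the ferroxidase subunit, which oxidises iron on its way into the shell. Its locus is chr11:61959718-61967660, minus strand (ENSG00000167996). It was at 1040, 901 and 1094 CPM in the PM2.5 libraries and 4574, 4138 and 3721 CPM in the Control libraries. The lowest Control library was thus more than 3 times the highest PM2.5 library, and the groups did not overlap. Its log2 change was -2.03 ± 0.12 (SE, n = 3 each; edgeR quasi-likelihood adjusted p = 3.00e-09).

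The light chain gene FTL encodes the subunit that helps the iron core form. Its locus is chr19:48965301-48966878, plus strand (ENSG00000087086). It was at 4351, 3883 and 4553 CPM in the PM2.5 libraries and 14485, 14227 and 10347 CPM in the Control libraries. Control replicate 3 was the lowest of its group, yet it was still more than 2 times any PM2.5 library. The log2 change was -1.61 ± 0.14 (SE, n = 3 each; edgeR quasi-likelihood adjusted p = 3.04e-07), and -1.76 without Control replicate 3. In bulk RNA, fewer cells with a high ferritin level and less ferritin RNA per cell cannot be told apart. Together the 2 chains took 0.531% ± 0.0341 of all counts in PM2.5 libraries and 1.69% ± 0.194 in Control libraries (SD, n = 3 each).

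Ferritin genes have many processed pseudogenes, which are close copies of the mRNA, and reads can be counted on either. The table holds 25 FTH1 pseudogenes, 17 of them with counts. Their summed counts came to 2.95% of those of FTH1 in PM2.5 libraries and 3.21% in Control libraries. The most abundant was FTH1P8, 97.5% identical to the FTH1 transcript over 516 aligned bases, at 12.8 ± 0.407 CPM in PM2.5 libraries and 54.5 ± 4.03 CPM in Control libraries (SD, n = 3 each). FTH1P2 and FTH1P20, at 97.6% and 97.1% identity, followed it. Their log2 changes were -2.09 ± 0.11 for FTH1P8, -2.23 ± 0.12 for FTH1P2 and -2.06 ± 0.20 for FTH1P20 (SE). All 8 tested FTH1 pseudogenes were called lower, with log2 changes from -4.33 to -1.60, against 15.8% of all tested genes. A scarce pseudogene can pass the filter on low counts through the Control libraries alone, so this count is not read as a result. Whether these rows hold their own transcripts or reads of FTH1 was not tested.

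FTL pseudogene counts came to 0.0880% of those of FTL in PM2.5 libraries and 0.0805% in Control libraries. FTLP3, the 1 of 16 that passed the filter, is 97.7% identical to FTL over 528 bases and had a log2 change of -1.50 ± 0.17 (SE). With pseudogene counts added to their parent genes the log2 changes were -2.04 for FTH1 and -1.61 for FTL. Exons of BEST1, on the opposite strand, cover 62.4% of the exonic bases of FTH1, and the sources used here do not say whether the counting used strand. BEST1 had 55 counts over all 6 libraries.

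Both chains fell, and the ratio between them was compared within each library. Per kilobase, the ratio of FTH1 to FTL was 0.103, 0.10 and 0.104 in the PM2.5 libraries and 0.137, 0.126 and 0.156 in the Control libraries. The PM2.5 libraries lay close together and below every Control library. The difference was -0.44 on the log2 scale, with an SD of 0.028 in PM2.5 libraries and 0.154 in Control libraries (exact two-sided permutation test, p = 0.10, the smallest that 3 against 3 libraries allow). This ratio does not depend on library scaling, and with the pseudogenes added to both chains the difference was -0.44.

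The transferrin receptor gene TFRC, which brings in transferrin-bound iron, is at chr3:196027183-196082189, minus strand (ENSG00000072274). It was at 47.8, 54.1 and 45.7 CPM in the PM2.5 libraries and 47.0, 50.9 and 55.0 CPM in the Control libraries. The groups overlapped over nearly their whole range. The log2 change was -0.05, with a 95% interval from -0.27 to 0.17 (edgeR quasi-likelihood adjusted p = 0.739). Its sign changed without Control replicate 3, where the change was 0.003.

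Against the storage chain the receptor stood higher in PM2.5 libraries. The ratio of TFRC to FTH1 per kilobase was 0.0118, 0.0155 and 0.0108 in the PM2.5 libraries and 0.00265, 0.00317 and 0.00380 in the Control libraries. Every PM2.5 library was above every Control library. The difference was 1.98 on the log2 scale, a factor of 3.95 (exact two-sided permutation test, p = 0.10, the smallest possible here). Because TFRC itself did not differ beyond its spread, this ratio repeats the fall of FTH1.

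**Figure D2:**
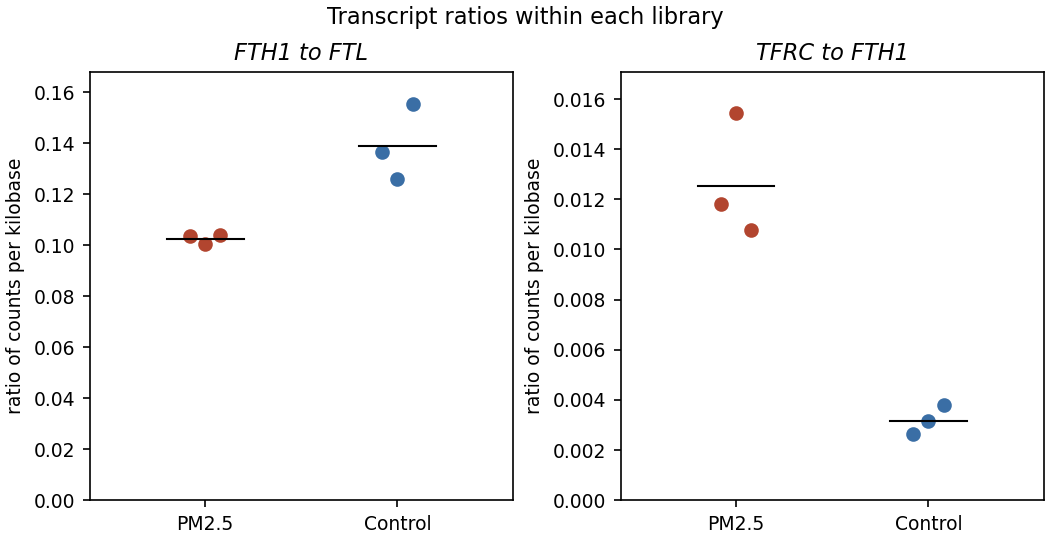
Ratio of counts per kilobase within each library, for FTH1 to FTL (left) and TFRC to FTH1 (right); points are single libraries, 3 per group, lines are geometric means, and both axes start at 0. In each panel the groups do not overlap: the PM2.5 libraries are the lower group for FTH1 to FTL and the higher group for TFRC to FTH1.

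STEAP3 is the endosomal reductase that acts on iron released from transferrin. Its locus is chr2:119223831-119265652, plus strand (ENSG00000115107). It was at 35.5, 35.5 and 37.7 CPM in the PM2.5 libraries and 40.3, 37.7 and 46.3 CPM in the Control libraries. The highest PM2.5 library lay just above the lowest Control library, and the log2 change of -0.19 did not pass the test (95% interval from -0.42 to 0.03, adjusted p = 0.179). Exons of the antisense gene STEAP3-AS1, with 35 counts over the 6 libraries, cover 11% of its exonic bases.

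SLC11A2, also called DMT1, carries ferrous iron out of the endosome. Its locus is chr12:50979401-51028566, minus strand (ENSG00000110911). It was at 70.0, 63.7 and 64.2 CPM in the PM2.5 libraries and 64.5, 67.1 and 70.2 CPM in the Control libraries. These ranges were nearly the same, and the log2 change was -0.03 with a 95% interval from -0.23 to 0.17 (adjusted p = 0.842). For TFRC and SLC11A2 the intervals leave out changes of 1.5-fold or more in either direction.

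SLC39A14, also called ZIP14, imports zinc, manganese and iron that is not bound to transferrin. It was the single member called higher. Its locus is chr8:22367249-22434129, plus strand (ENSG00000104635). It was at 234, 242 and 251 CPM in the PM2.5 libraries and 152, 164 and 138 CPM in the Control libraries, with no overlap. The log2 change was 0.68 ± 0.10 (SE, n = 3 each; edgeR quasi-likelihood adjusted p = 5.45e-05).

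The exporter ferroportin is encoded by SLC40A1, at chr2:189560579-189583758, minus strand (ENSG00000138449). It was the scarcest member, at 3.83, 3.86 and 2.62 CPM in the PM2.5 libraries and 3.43, 3.21 and 2.75 CPM in the Control libraries. The single counts behind these levels ran from 90 to 133 in PM2.5 libraries and from 94 to 105 in Control libraries. The groups overlapped, and the log2 change of 0.14 had a wide 95% interval, from -0.34 to 0.61 (adjusted p = 0.679), which does not leave out a rise of 1.5-fold.

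ACO1 encodes IRP1, which is a cytosolic aconitase while it holds an iron-sulphur cluster and an RNA-binding protein when it does not. Its locus is chr9:32384603-32454769, plus strand (ENSG00000122729). It was at 97.9, 107 and 108 CPM in the PM2.5 libraries and 137, 141 and 145 CPM in the Control libraries. The groups did not overlap, and ACO1 fell by 0.44 ± 0.09 on the log2 scale, 1.35-fold (SE, n = 3 each; edgeR quasi-likelihood adjusted p = 0.00149).

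IREB2 encodes IRP2, which has no such cluster and is degraded when iron is plentiful. Its locus is chr15:78437431-78501456, plus strand (ENSG00000136381). It was at 13.1, 13.2 and 11.1 CPM in the PM2.5 libraries and 11.3, 12.2 and 15.4 CPM in the Control libraries. The groups overlapped and Control replicate 3 was the highest library of all. The log2 change was -0.06, with a 95% interval from -0.38 to 0.26 (adjusted p = 0.786), and it was 0.08 without Control replicate 3 and 0.01 without PM2.5 replicate 3.

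NCOA4 is the receptor that delivers ferritin to autophagosomes by binding its heavy chain. Its locus is chr10:46005088-46030714, minus strand (ENSG00000266412). It was at 141, 153 and 138 CPM in the PM2.5 libraries and 170, 177 and 196 CPM in the Control libraries. Each PM2.5 library was below each Control library, and NCOA4 fell by 0.33 ± 0.09 on the log2 scale, 1.26-fold (SE, n = 3 each; edgeR quasi-likelihood adjusted p = 0.0141). The call was lost without PM2.5 replicate 1, where the adjusted p was 0.102 and the log2 change -0.30.

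**Figure D3:**
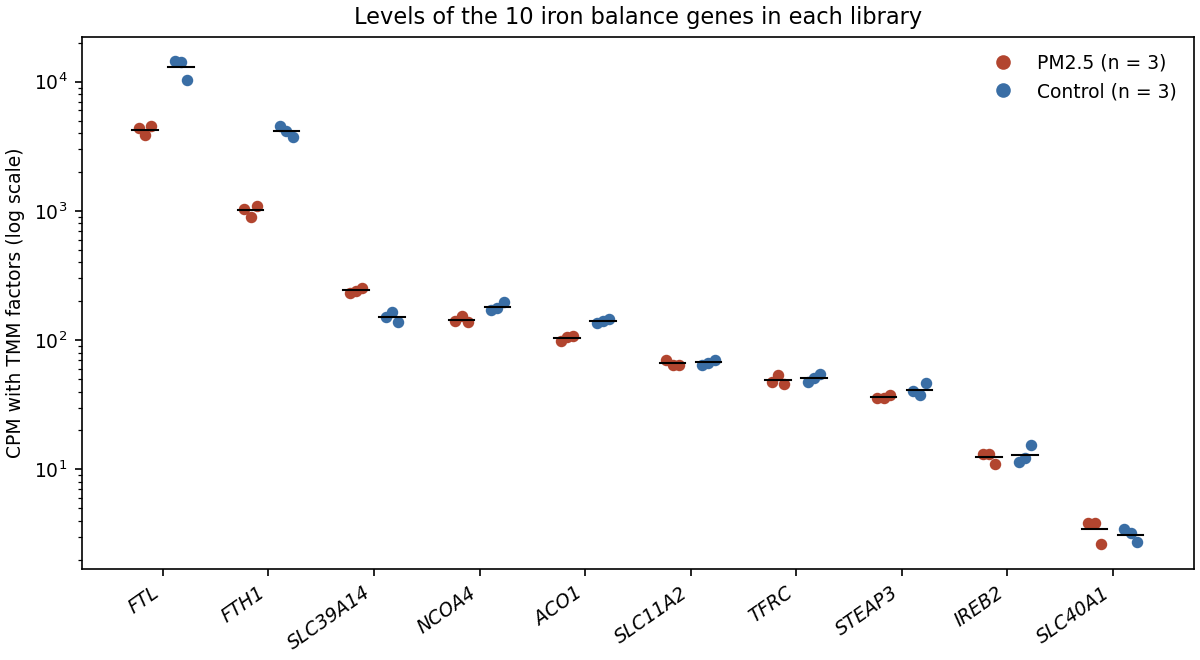
CPM with TMM factors of the 10 genes in each library on a log scale, PM2.5 left of Control for each gene; points are single libraries, 3 per group, and lines are group means. The groups are far apart for FTL and FTH1, apart for SLC39A14, NCOA4 and ACO1, and overlap for the other 5 genes.

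Counted over the members, 1 was called higher and 4 lower at an adjusted p under 0.05. Over all 14975 genes tested 31.9% were called, 16.1% higher and 15.8% lower. The CPM ranges of the groups did not overlap for 5 of the 10 members, against 44.3% of all tested genes. With 5 of 10 called, the members' share is read as no result beyond this background. The median log2 change of the 10 members was -0.13, against -0.01 over all tested genes. Leaving out Control replicate 3, the same 5 members were called, with log2 changes of -2.11 for FTH1, -1.76 for FTL, -0.42 for ACO1, -0.27 for NCOA4 and 0.61 for SLC39A14.

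**Figure D4:**
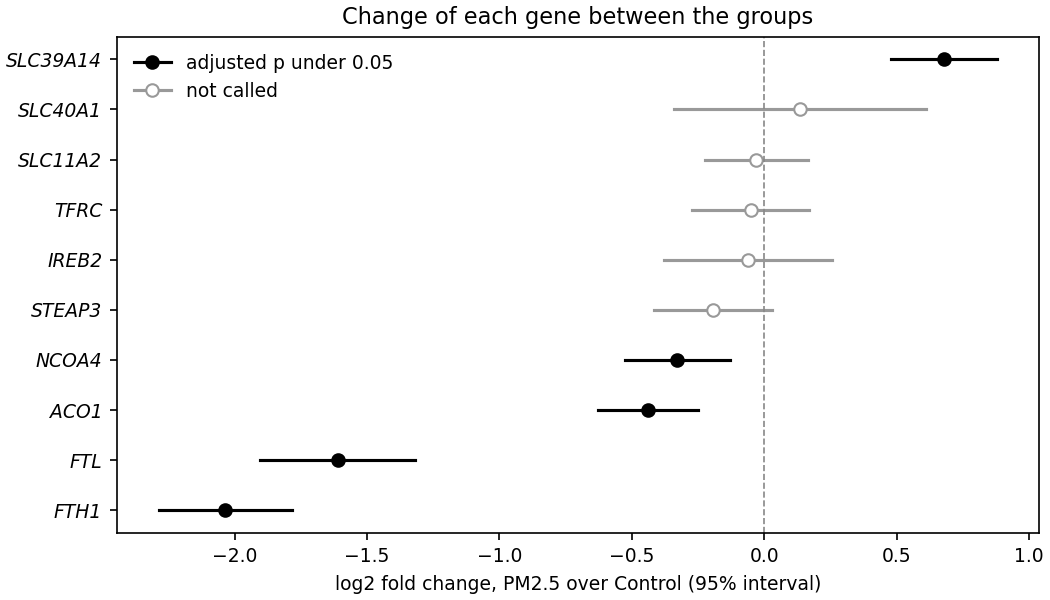
Log2 fold change of PM2.5 over Control for each gene with its 95% interval from edgeR's quasi-likelihood fit (n = 3 per group); filled black points have an adjusted p under 0.05 and open grey points do not. FTH1 and FTL lie at -2.03 and -1.61, ACO1 and NCOA4 between -0.5 and 0, SLC39A14 at 0.68, and the intervals of the other 5 genes cross 0.

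Per length, the order of the members was the same in both groups. In TPM, counts per kilobase of deposited gene length scaled to a fixed sum per library, FTL stood highest, at 17268 ± 834 TPM in PM2.5 libraries and 46687 ± 5458 TPM in Control libraries, rank 3 of all genes in PM2.5 libraries and rank 2 in Control libraries. FTH1 followed at 1772 ± 118 TPM in PM2.5 libraries and 6453 ± 326 TPM in Control libraries (SD, n = 3 each). After the chains came NCOA4, SLC39A14, ACO1, STEAP3, SLC11A2, TFRC, IREB2 and SLC40A1 in both groups. SLC11A2 and TFRC could not be ordered, since their libraries overlapped in both groups, and NCOA4 and SLC39A14 overlapped in PM2.5 libraries (126 ± 11.6 and 124 ± 5.18 TPM) but not in Control libraries (141 ± 20.4 and 68.9 ± 3.05 TPM). At the low end IREB2 had 4.11 ± 0.50 TPM in PM2.5 libraries and 3.84 ± 0.923 TPM in Control libraries, and SLC40A1 had 2.84 ± 0.645 TPM in PM2.5 libraries and 2.28 ± 0.112 TPM in Control libraries. TPM is used here only to order genes within a group, because its fixed sum ties the value of each gene to those of all others.

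The protein-coding genes whose profile over the 6 libraries lay nearest to that of FTH1, by the Euclidean distance of centred log2 CPM, were the chemokine CCL3 (distance 0.081), the cytokine IL24 (0.175) and the transcription factor SNAI2 (0.337). CCL3, which has near-identical copies in the genome, was at 21.8 to 26.5 CPM in PM2.5 libraries and 87.0 to 107 CPM in Control libraries. Nearest to TFRC were PLAA (0.057), SPIRE1 (0.068) and FCHSD2 (0.078), all with log2 changes between -0.05 and 0. These distances describe 6 libraries only and are given with no test.

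Among other genes of iron uptake, reduction and export, 3 of 12 tested were called higher and 2 lower (19 matched, median log2 change -0.01). Beside this, 16.1% of all tested genes were called higher and 15.8% lower. SLC39A8, the close relative of SLC39A14 that imports zinc and manganese, was at 26.9 ± 1.68 CPM in PM2.5 libraries and 17.4 ± 2.69 CPM in Control libraries and rose by 0.62 ± 0.13 on the log2 scale (SE, n = 3 each; edgeR quasi-likelihood adjusted p = 0.00154). The siderophore-binding protein LCN2 and the ferritin receptor SCARA5 rose at low levels, with means of 1.88 and 2.58 CPM in PM2.5 libraries and 0.593 and 1.13 CPM in Control libraries. The metalloreductase STEAP1 fell by 0.50 ± 0.13 on the log2 scale. The lysosomal channel MCOLN1, chosen after its values were seen, fell by 0.48. Transferrin itself (TF) was under 1 CPM in every library.

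Of 9 tested genes of iron sensing and hepcidin control 3 were called higher and 2 lower (11 matched, median -0.17). The shares over all tested genes were 16.1% higher and 15.8% lower. BMP6, the ligand that drives hepcidin in liver, was at 10.1 ± 0.370 CPM in PM2.5 libraries and 2.98 ± 0.349 CPM in Control libraries, a log2 change of 1.76 ± 0.17 (SE, n = 3 each; edgeR quasi-likelihood adjusted p = 1.19e-06). ERFE, the erythroid hormone that opposes it, rose by 0.71 ± 0.17. EPAS1, the hypoxia-inducible factor HIF2-alpha, fell by 0.48 ± 0.09 and the ubiquitin ligase scaffold CUL1 by 0.51 ± 0.13. The remaining call, TMPRSS6, was chosen after its values were seen and rests on 15, 16 and 15 counts in PM2.5 libraries and 0, 0 and 5 counts in Control libraries. The hormone HAMP itself was under 1 CPM in every library. Without Control replicate 3 the list had 3 called higher and 4 lower. That setting gave 2600 higher and 2680 lower over all genes, against 2410 and 2365 with all libraries.

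Over all genes tested 15.8% were called lower and 16.1% higher, beside which the counts of the iron-sulphur cluster lists stand as a description. Of 9 tested cytosolic assembly genes 4 were called lower and 0 higher (10 matched; median -0.30): CIAO3 by 0.56 ± 0.14, CIAO2B by 0.41 ± 0.11, CIAO1 by 0.38 ± 0.10 and CIAPIN1 by 0.30 ± 0.11 on the log2 scale (SE, n = 3 each). CIAO1, part of the complex that hands clusters to their targets, was at 56.95 ± 5.08 CPM in PM2.5 libraries and 74.1 ± 1.33 CPM in Control libraries. Of 21 tested genes of mitochondrial iron import and cluster assembly 4 were called lower and 0 higher (22 matched; median -0.16), among them NFU1 by 0.57 ± 0.15, HSCB by 0.55 ± 0.16 and the cysteine desulfurase NFS1 by 0.35 ± 0.10. Without Control replicate 3 this last list had 9 called lower and 0 higher, and the cytosolic list 5 and 0. Calls over all genes also rose in that setting, to 2680 lower and 2600 higher from 2365 and 2410.

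Of 8 tested iron chaperone and ferritinophagy genes 1 was called lower and 0 higher (9 matched, median -0.08). This was the poly(C)-binding protein PCBP3, which fell by 0.40 ± 0.13. Without Control replicate 3, where more genes were called over the whole table, there were 3 lower. Of 5 tested transcripts described elsewhere with an iron-responsive element 3 were called lower and 0 higher (6 matched, median -0.30). Among these 3 were EPAS1 and the actin regulator PFN2, which fell by 0.35 ± 0.09. Without Control replicate 3 there were 3 lower and 1 higher. Beside both lists, 15.8% of all tested genes were called lower and 16.1% higher with all libraries. EPAS1 stands in an earlier list too. Of the transcripts with the stem-loop in the 5′ untranslated region, FTH1 and FTL fell, SLC40A1 and CFL1 did not pass the test, and ALAS2 was too scarce to test. CFL1 was at 735 ± 68.4 CPM in PM2.5 libraries and 710 ± 66.6 CPM in Control libraries (SD, n = 3 each; edgeR quasi-likelihood adjusted p = 0.757).

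**Figure D5:**
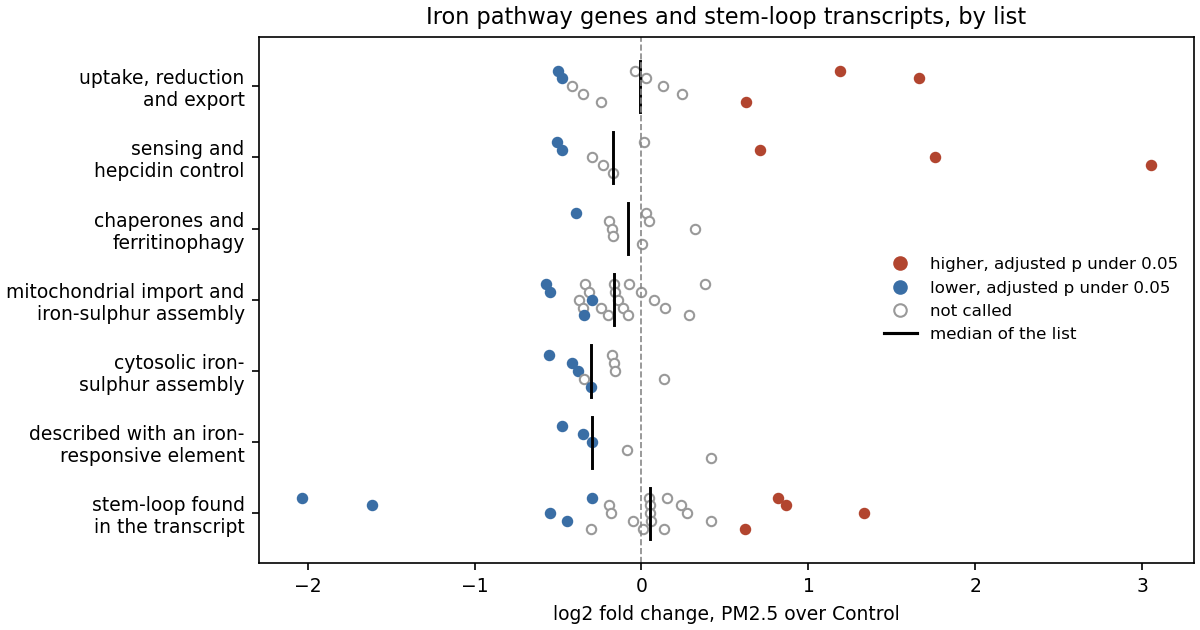
Log2 fold change of PM2.5 over Control for each tested gene of the 6 iron pathway lists and of the transcripts in which the stem-loop was found; each point is a gene, coloured where its adjusted p was under 0.05, and the black line is the median of the list. FTH1 and FTL, at -2.03 and -1.61, lie beyond every gene called lower in the 6 pathway lists, whose falls are all smaller than 0.6.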

How the data were processed

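The authors deposited whole-number read counts of the 6 libraries in 1 table, which per the file headers also holds symbols, coordinates and gene lengths. The submitters' processing notes name GRCh38. The sources used here give no aligner, counter or strand setting. All 58735 identifiers matched GENCODE release 29 in start, end and strand. Columns were assigned by library title. Within-group pairs differed by more than counting noise (chi-square per degree of freedom 5.74 to 36.2 over tested genes), so none was treated as a library deposited a second time; this does not show that the cultures were separate.

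In edgeR 4.0.16 (R 4.3.3), the table was filtered by filterByExpr at a count of 10 and a total of 15, scaled by TMM factors and compared by edgeR's quasi-likelihood test, two-sided, with Benjamini-Hochberg adjustment over all 14975 genes, called under 0.05. SE is the log2 change over the square root of F. The fit was tested on simulated data. Ratios were tested by exact permutation.

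Alternatives were RLE and upper-quartile factors, other filters, DESeq2 1.42.0, limma-voom (limma 3.58.1), a replicate block, leaving out each library, and adding pseudogene counts. The members and lists were chosen with earlier results of these data known. The text names all members, up to 4 called genes per list by p, the most abundant pseudogenes, and the 3 nearest profiles to FTH1 and TFRC. Some genes of the lists are not reported here.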

Additional observations from a re-analysis of the deposited data

How the results depend on the processing

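Across the alternatives 1 member was called higher in each. The number called lower was 4 in each, except that it was 3 without PM2.5 replicate 1, where NCOA4 was lost (adjusted p = 0.102; 0.0141 with all libraries). The log2 change ran from -2.11 to -1.96 for FTH1, -1.76 to -1.53 for FTL, -0.47 to -0.39 for ACO1, -0.37 to -0.27 for NCOA4 and 0.61 to 0.74 for SLC39A14. Among the uncalled members, the log2 change of TFRC ran from -0.12 to 0.003 and that of IREB2 from -0.15 to 0.079 when a library was left out, with a change of sign for TFRC without Control replicate 3 (0.003) and for IREB2 without Control replicate 3 (0.079) or PM2.5 replicate 3 (0.014); the cause was not tested. The log2 difference of the FTH1 to FTL ratio ran from -0.51 to -0.35 and that of the TFRC to FTH1 ratio from 1.83 to 2.11.

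Over all genes, leaving out a library gave 1797 to 2600 higher and 1448 to 2680 lower, against 2410 and 2365; the 1448 came without PM2.5 replicate 1. With the replicate block 1951 genes were higher and 1826 lower, and the 5 called members kept their calls. Same-numbered libraries did not deviate together (correlations 0.0075, -0.049 and -0.16), so the numbers were not taken as pairs. RLE and upper-quartile factors moved the median of all tested genes by 0.01 and 0.018 on the log2 scale. Without the filter on low counts, over a larger set of genes, the median moved by 0.044. The list counts without Control replicate 3 were added after seeing the data. SLC40A1, with 90 to 133 counts per library, had the widest interval of the members.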

Other observations

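The stem-loop search picked out transcripts by sequence alone, and 23 of the 35 had enough counts to be tested, 4 called higher and 5 lower (over all tested genes 16.1% were called higher and 15.8% lower), with a median log2 change of 0.05 against -0.01 over all tested genes. Beside FTH1 and FTL, the calls included the cytokinesis factor ECT2, at 52.5 ± 7.56 CPM in PM2.5 libraries and 20.8 ± 1.16 CPM in Control libraries (SD, n = 3 each), the RNA-editing enzyme ADARB1 (log2 change 0.62 ± 0.10, SE), the pyruvate dehydrogenase kinase PDK1 (0.87 ± 0.16) and the nuclear envelope protein SYNE1 (0.82 ± 0.19), which were higher, and BTBD9 (-0.55 ± 0.12) and the ubiquitin ligase WWP2 (-0.45 ± 0.11), which were lower. These 6 were named after their values were seen. CDC42BPA, a kinase described elsewhere with an element in its 3′ untranslated region, did not pass the test (0.42 ± 0.16, edgeR quasi-likelihood adjusted p = 0.0592). Whether any of these stem-loops is bound in these cells was not tested.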
